A study of Mus musculus with 8 samples.

Results

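Messenger RNA of 10 genes for T cell costimulatory and checkpoint molecules was examined, out of 22173 gene symbols counted in 8 mouse libraries. They are the CD28 and ICOS ligand genes Cd80, Cd86 and Icosl, the CD40 gene Cd40, the PD-1 ligand genes Cd274 and Pdcd1lg2, the VISTA gene Vsir, the B7-H3 gene Cd276, and Cd200 with its receptor gene Cd200r1, and they were chosen by name. Macrophages were grown for 7 days from the bone marrow of wild-type mice in medium with L929 cell supernatant, a source of M-CSF, and are called M0. M1 macrophages received LPS (100 ng/ml) and IFN-γ (20 ng/ml) for 48 h, and the macrophages labelled M2 received IL-4 (20 ng/ml) for 48 h. A partner library of each state had 10 μmol/L G-1, an agonist of the estrogen receptor GPER1, for 48 h, dissolved in DMSO, and the labels name no vehicle for the libraries without it. For the M0 library without G-1 no such 48 h is given, so its time in culture may differ from the other macrophage libraries. In comparisons with that library, time and treatment cannot be told apart. The last pair held primary tubular epithelial cells (TECs) of the kidney, kept for 24 h across a porous membrane from M1 macrophages that had been pretreated with or without G-1 and rinsed.

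Each group is 1 library made from 3 pooled samples, so no comparison of a pair has a replicate check and every difference is one between these libraries. Total counts ran from 35027179 to 40671596. Levels are in CPM, the count scaled to the library total. A fold between libraries is on counts scaled by TMM, its 95% interval is the exact binomial interval of the counts and covers counting error only, and a gene was measured from 20 counts in either library and called higher or lower from 2-fold. The libraries of different states belong to different sequencing sets in the study's methods, so state and set cannot be told apart. A lower level in bulk RNA may stand for fewer cells of a type or for less RNA per cell, and these cannot be told apart either.

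The labels were checked against defining genes before any result. All 10 macrophage markers were present in the 6 macrophage libraries, where at most 39 counts fell on the 8 markers of tubular epithelium together, and all 8 of these were present in both TEC libraries. Of 11 T cell markers, 2 or 3 had at least 20 counts in each library. The 11 summed to 304 CPM in M0, of which Cd28 held 303 CPM. The markers Cd3d, Cd3e, Cd3g, Ctla4 and Pdcd1 had 0 counts in every library. The M1 library held 44992 counts of the nitric oxide synthase gene Nos2 and 2689 of Il12b, against 2 and 0 in M0, although the IFN-γ-induced chemokine gene Cxcl9 had 25 counts against 19 and the class II regulator Ciita 25 against 545. The library labelled M2 went against its label in part. Of 8 genes known to respond to IL-4 in mouse macrophages, 4 had enough counts in M0 or in that library, 0 were higher than in M0 and 2 were lower. Retnla, Ccl17 and Ccl22 had 0 counts there, Arg1 had 7, Chil3 had 9 against 68 in M0 and Mgl2 had 14 against 649, while the mannose receptor gene Mrc1 had 188110 against 83675. These genes were chosen after their values were seen. Directions drawn from it are those of the library labelled M2, written M2-labelled below.

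T cells need a second signal beside the antigen to become active. CD80 and CD86 on antigen-presenting cells give it through CD28 and withhold it through CTLA-4, ICOSL acts through ICOS, and CD40 on the presenting cell receives the T cell's CD40 ligand and raises the other signals. PD-L1 (Cd274) and PD-L2 (Pdcd1lg2) restrain T cells through PD-1, VISTA is an inhibitory member of the same family, and B7-H3 is a member whose receptor is not settled. CD200 on many cells binds CD200R1, an inhibitory receptor of myeloid cells, so that this pair acts on the macrophage itself.

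Cd274 and Pdcd1lg2 lie next to each other on chromosome 19 of GRCm38, from 29367455 to 29388095 and from 29410919 to 29471161 on the plus strand, 22823 bases apart. Their promoters and that of Cd200, on the minus strand of chromosome 16, are shown because the first 2 genes are neighbours with far apart levels and the third had the largest single fold, in M1 over M0. Each run is the 250 bases before the RefSeq start site on GRCm38.p6, read 5′ to 3′ along the gene, with a match to a searched motif in capitals.
Cd274, chr19:29367188-29367437: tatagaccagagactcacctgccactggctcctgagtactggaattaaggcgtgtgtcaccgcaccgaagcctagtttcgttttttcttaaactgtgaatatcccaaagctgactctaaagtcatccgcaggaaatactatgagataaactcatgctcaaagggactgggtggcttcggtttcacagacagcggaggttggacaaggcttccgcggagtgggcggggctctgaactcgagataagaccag
Pdcd1lg2, chr19:29410669-29410918: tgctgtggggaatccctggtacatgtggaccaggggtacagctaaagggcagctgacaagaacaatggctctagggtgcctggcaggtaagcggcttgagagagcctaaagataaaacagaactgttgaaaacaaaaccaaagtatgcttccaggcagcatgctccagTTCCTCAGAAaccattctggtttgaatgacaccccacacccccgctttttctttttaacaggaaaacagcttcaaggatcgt
Cd200, chr16:45409054-45409303: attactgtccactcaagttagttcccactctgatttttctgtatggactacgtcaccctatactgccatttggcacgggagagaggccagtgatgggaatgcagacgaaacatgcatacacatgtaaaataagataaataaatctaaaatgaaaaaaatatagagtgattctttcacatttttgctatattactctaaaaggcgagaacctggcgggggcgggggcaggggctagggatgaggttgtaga
Promoter windows of 300 bases, which reach 50 bases past the start, were given for 7 of the 10 genes, without Cd86, Cd40 and Cd200r1. The motifs searched on both strands included the STAT6-type letters TTC and GAA with 4 bases between them, the interferon response letters GAAA and GAAA with 2 between, the NF-κB-type letters GGG and TTTCC with 2 between, and the PU.1-type run GAGGAAGT. The only match to these was TTCCTCAGAA in the Pdcd1lg2 promoter, 82 bases before the start. The STAT6-type letters occur in 6.95% of 32851 such windows, the interferon response type in 3.44%, the NF-κB type in 1.63% and the PU.1 type in 3.2%. A match is a description of the letters and not a binding site, and the lack of one says only that these letters are not in this window.

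The macrophages with G-1 held less RNA of Vsir and Icosl and more of Cd276 and Cd200 in all 3 pairs of states. Cd274 was higher with G-1 in M0 and M2-labelled macrophages and lower in M1 macrophages. In the M0 pair, 3 of 9 measured genes were at least 2-fold higher with G-1 and 5 lower, where 12.2% of all 11252 measured genes were higher and 12.6% lower. In the M1 pair, 2 of 9 were higher and 4 lower, against 9.44% and 12.1% of all genes. In the M2-labelled pair, 3 of 9 were higher and 4 lower, against 5.95% and 7.78%. The log2 folds ran from -3.07 to 6.17 in M0, from -2.61 to 2.27 in M1 and from -1.82 to 4.48 in M2-labelled macrophages. In the TEC pair, 1 of 7 was lower and 0 higher, against 2.82% and 1.39%.

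**Figure D1:**
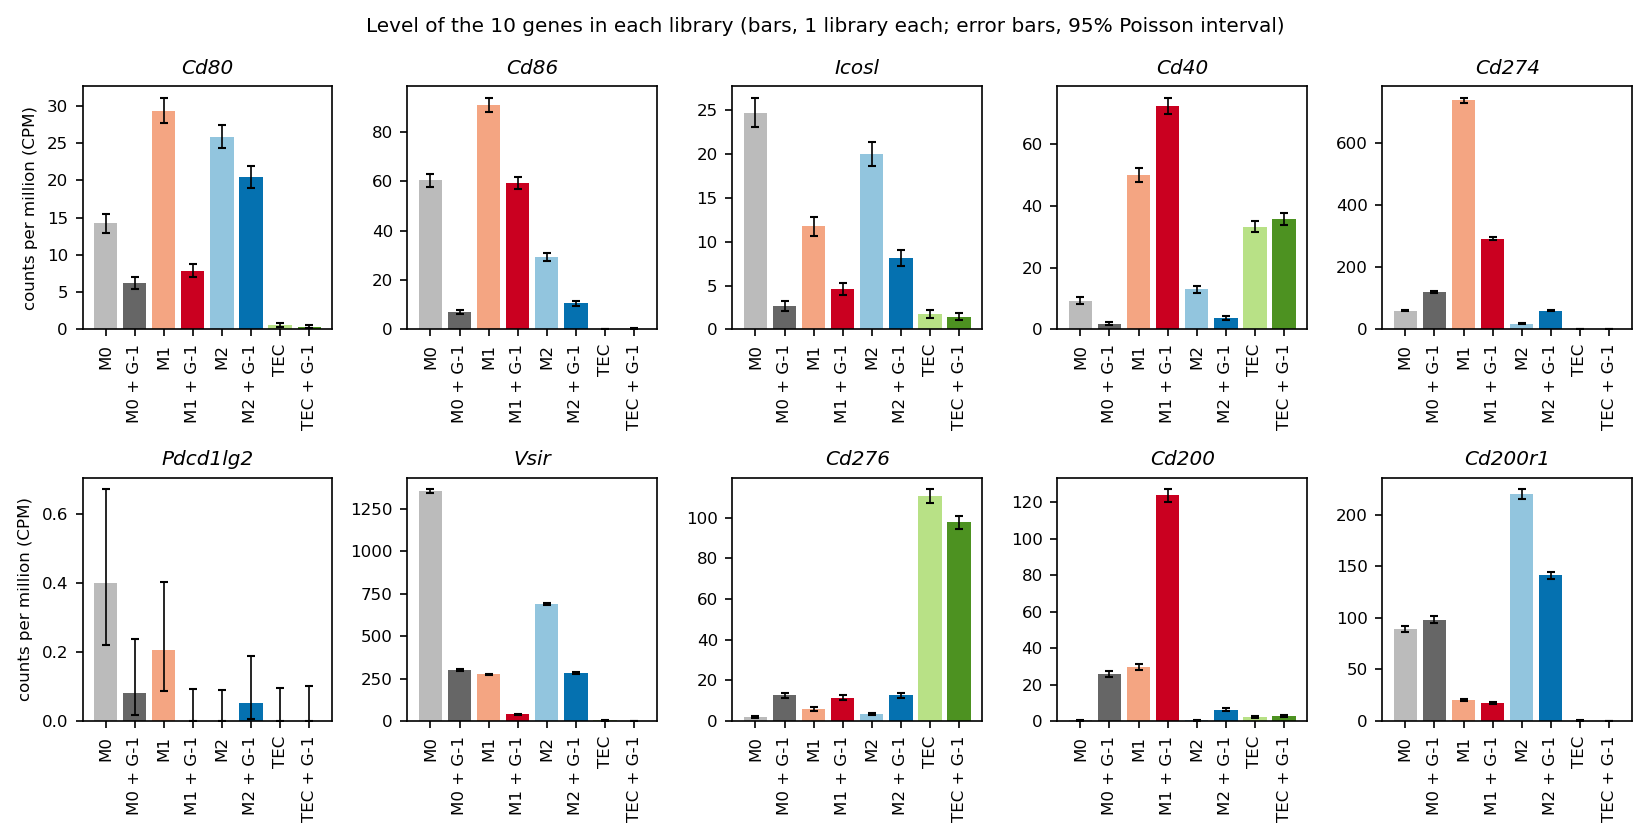
Level of each of the 10 genes in CPM (vertical axis, starting at 0, own scale per gene) in the 8 libraries (horizontal axis). Each bar is 1 library and the error bars are 95% Poisson intervals of its count. Vsir was highest in M0 (1355 CPM), Cd274 in M1 (738 CPM), Cd200 in M1 with G-1 (124 CPM), Cd200r1 in the M2-labelled library (220.4 CPM) and Cd276 in TECs (111 CPM).

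**Figure D2:**
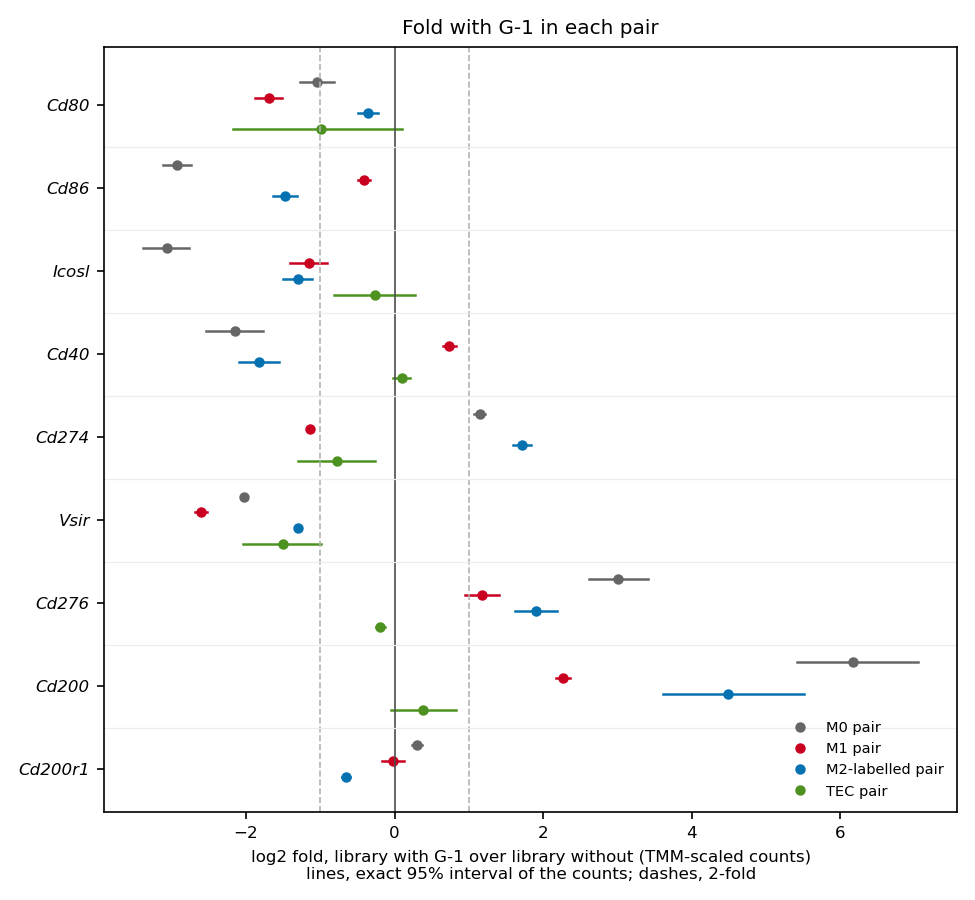
Log2 fold with G-1 over without G-1 (horizontal axis) for 9 genes (vertical axis) in the M0, M1, M2-labelled and TEC pairs. Points are folds of 1 library over 1 library, lines are exact 95% intervals and dashed lines mark 2-fold. Cd200 and Cd276 lie to the right of the 2-fold line in the 3 macrophage pairs, Vsir and Icosl to its left, and Cd274 on both sides. Pdcd1lg2 had too few counts to be drawn.

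Cd80 was lower with G-1 in M0 and M1 macrophages. It had 14.2 CPM in M0 and 6.19 in M0 with G-1, 29.3 in M1 and 7.88 in M1 with G-1, 25.8 in M2-labelled and 20.4 in M2-labelled with G-1. With G-1 it was 2.06-fold lower in the M0 pair (95% interval 1.76 to 2.42) and 3.24-fold lower in the M1 pair (2.86 to 3.68). In the M2-labelled pair its log2 fold was -0.35, within 2-fold. M1 macrophages without G-1 had 2.29 times the M0 level (2.06 to 2.55), whereas with G-1 the log2 fold of M1 over M0 was 0.56. The M1 library with G-1 thus stood next to the M0 library with G-1 in order of CPM, with overlapping counting intervals. The fold between them on TMM-scaled counts was 1.47 (1.24 to 1.75), an interval that lies above equal levels.

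Cd86, the other CD28 ligand gene and one used to mark M1 macrophages, differed from it in the state that moved least. Its levels were 60.4 CPM in M0 and 7.11 in M0 with G-1, 90.9 in M1 and 59.4 in M1 with G-1, 29.3 in M2-labelled and 10.6 in M2-labelled with G-1. It was 7.63-fold lower with G-1 in the M0 pair (6.71 to 8.70) and 2.78-fold lower in the M2-labelled pair (2.48 to 3.12). The M1 pair stayed within 2-fold, with a log2 fold of -0.41. The M1 library with G-1 and the M0 library without it were close in CPM, with overlapping counting intervals, which does not show equal levels. Under G-1 the M1 library was 9.66-fold above M0 (8.50 to 11.01), against a log2 fold of 0.74 without G-1.

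The ratio of both CD28 ligand genes within a library needs no scaling between libraries. Per kilobase of the longest annotated transcript, Cd80 stood at 0.188 of Cd86 in M0 (0.170 to 0.208), and at 0.697 with G-1 (0.581 to 0.835). In M1 the ratio was 0.258 (0.242 to 0.276) and with G-1 0.106 (0.0941 to 0.119). It was 0.705 in the M2-labelled library (0.648 to 0.766) and 1.54 with G-1 (1.36 to 1.73), the only macrophage library with more Cd80 than Cd86. The ratio thus moved toward Cd80 with G-1 in the M0 and M2-labelled pairs and toward Cd86 in the M1 pair.

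Icosl was lower with G-1 in every macrophage state. Levels were 24.8 CPM in M0 and 2.65 in M0 with G-1, 11.8 in M1 and 4.598 in M1 with G-1, 19.99 in M2-labelled and 8.14 in M2-labelled with G-1, so that no library with G-1 reached any without it. The gene was 8.39-fold lower in the M0 pair (6.80 to 10.4), 2.22-fold lower in the M1 pair (1.87 to 2.65) and 2.47-fold lower in the M2-labelled pair (2.17 to 2.83). Against M0, the M1 and M2-labelled libraries were within 2-fold without G-1, at log2 folds of -0.92 and -0.43. With G-1 they were 2.01-fold (1.56 to 2.59) and 2.52-fold (1.999 to 3.19) above the M0 library with G-1, which held 98 counts.

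Cd40 separated the M1 macrophages from the others. Its levels were 9.31 CPM in M0 and 1.89 in M0 with G-1, 49.8 in M1 and 72.3 in M1 with G-1, 13.0 in M2-labelled and 3.70 in M2-labelled with G-1. With G-1 the gene was 4.42-fold lower in the M0 pair (3.40 to 5.80) and 3.53-fold lower in the M2-labelled pair (2.93 to 4.28), whereas in the M1 pair it had a log2 fold of 0.74, within 2-fold. M1 was 5.94-fold above M0 without G-1 (5.28 to 6.70) and 44.2-fold above it with G-1 (34.9 to 56.9). The M2-labelled library differed from M0 by less than 2-fold with and without G-1.

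**Figure D3:**
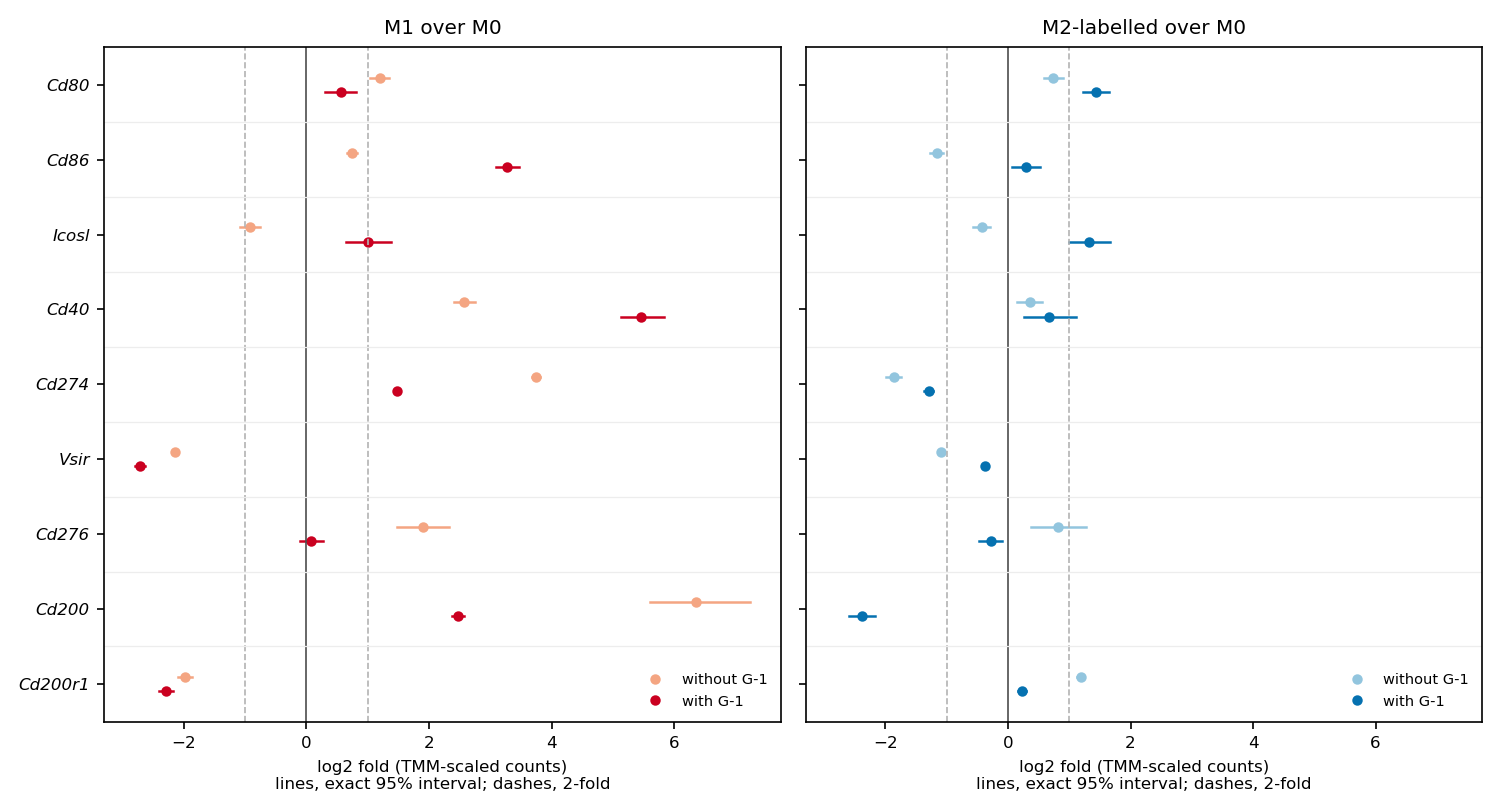
Log2 fold of M1 over M0 (left) and of M2-labelled over M0 (right) for 9 genes, without G-1 and with G-1 in all cultures. Points are folds of 1 library over 1 library, lines are exact 95% intervals, and dashed lines mark 2-fold. Cd40 and Cd86 lie further right for M1 with G-1 (44.2-fold and 9.66-fold above M0), while Cd274 and Cd200 lie further right without it (13.4-fold and 82.0-fold).

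Of the genes measured in M1 over M0 without G-1, 5 of 9 were at least 2-fold higher and 2 lower, where 16.8% of all genes were higher and 17.4% lower. With G-1 in both cultures the counts were also 5 and 2 of 9, against 17.7% and 19.7%, and Cd40, Cd274 and Cd200 were higher both times. Of the 5 higher with G-1, Icosl stood at only 2.01-fold, and at 1.75-fold with the length and GC trend removed. In M2-labelled over M0 without G-1, 1 of 8 was higher and 3 lower, against 7.7% and 6.64%, and with the length and GC trend removed 2 of 8 were higher and 2 lower, against 7.21% and 6.17%, since Cd276 joined and Vsir was lost. With G-1, 2 of 9 were higher and 2 lower, against 6.7% and 6.11%. The comparisons of M1 and of M2-labelled libraries share the M0 library, and each value is that comparison's own.

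Cd274 was the most abundant of the 10 genes in M1 macrophages per kilobase of transcript. It had 61.0 CPM in M0 and 121 in M0 with G-1, 738 in M1 and 293 in M1 with G-1, 18.2 in M2-labelled and 60.5 in M2-labelled with G-1. With G-1 it was 2.21-fold higher in the M0 pair (2.10 to 2.33) and 3.29-fold higher in the M2-labelled pair (3.03 to 3.58), but 2.19-fold lower in the M1 pair (2.15 to 2.24). M1 was 13.4-fold above M0 without G-1 (12.8 to 14.0) and 2.79-fold above it with G-1 (2.70 to 2.89). The M2-labelled library was 3.63-fold below M0 without G-1 (3.34 to 3.96) and 2.45-fold below it with G-1 (2.33 to 2.58). The spread between the macrophage libraries was therefore smaller with G-1, from 60.5 to 293 CPM, than without it, from 18.2 to 738 CPM.

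Pdcd1lg2, the neighbouring gene and the second PD-1 ligand, was near the limit of detection. Its counts were 14 in M0, 3 in M0 with G-1, 8 in M1, 0 in M1 with G-1, 0 in M2-labelled, 2 in M2-labelled with G-1 and 0 in both TEC libraries. A count of 0 allows up to 3 counts, and no library reached the 20 counts that a fold needs. Per kilobase, Cd274 stood 72.9 times above Pdcd1lg2 in M0 (43.3 to 134) and 1727 times above it in M1 (876 to 4000.0). Pdcd1lg2 is known to be induced by IL-4 in mouse macrophages, and the M2-labelled library had no count of it.

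Vsir was the most abundant of the 10 genes per kilobase in M0 and M2-labelled macrophages, with and without G-1. Levels were 1355 CPM in M0 and 298 in M0 with G-1, 275 in M1 and 39.2 in M1 with G-1, 689.5 in M2-labelled and 282 in M2-labelled with G-1. With G-1 it was 4.08-fold lower in the M0 pair (3.997 to 4.17), 6.10-fold lower in the M1 pair (5.78 to 6.43) and 2.46-fold lower in the M2-labelled pair (2.41 to 2.52). It was also lower in M1 than in M0, by 4.45-fold without G-1 (4.35 to 4.54) and 6.58-fold with it (6.24 to 6.94). With the length and GC trend removed these came to 4.34-fold and 4.79-fold. In the M2-labelled library it was 2.14-fold below M0 without G-1 (2.10 to 2.17), a log2 fold that came to -0.97 and so within 2-fold with the length and GC trend removed or with library totals. With G-1 it was within 2-fold, at a log2 fold of -0.37. Vsir (chromosome 10, 60346851 to 60372684, plus strand) lies within Cdh23, a gene on the other strand, and the strand setting of the counting is not given in the sources used here. Cdh23 had 54 counts or fewer in each macrophage library against 1576 or more of Vsir.

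**Figure D4:**
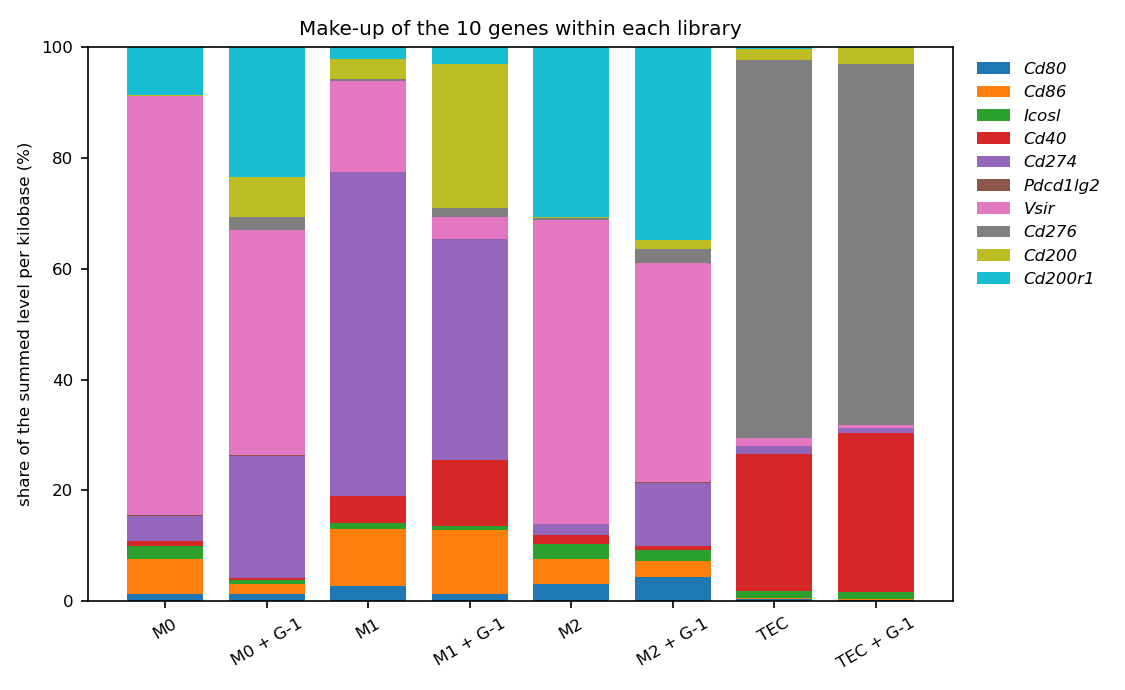
Share of each gene (colour) in the summed level per kilobase of the 10 genes (vertical axis, percent) within each of the 8 libraries (horizontal axis). Vsir made up 75.6% in M0 and 40.6% in M0 with G-1, Cd274 58.6% in M1, and Cd276 68.1% in TECs.

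The make-up within a library gives each gene as a share of the summed level per kilobase of the 10, so a share also shifts when another gene moves. Cd200r1, for example, held 8.71% in M0 and 23.5% with G-1, although its fold in that pair was 1.23. Vsir held 75.6% of the sum in M0 and 40.6% with G-1, 16.3% in M1 and 3.99% with G-1, and 54.9% in M2-labelled and 39.7% with G-1. Cd274 held 4.56% in M0 and 22.1% with G-1, 58.6% in M1 and 39.8% with G-1, and 1.94% in M2-labelled and 11.4% with G-1. Per kilobase of the longest transcript, the gene with the most RNA was thus Vsir in 4 of the 6 macrophage libraries and Cd274 in both M1 libraries, each an inhibitory gene. With the mean transcript length in place of the longest, Cd200 came first in M1 with G-1 and Cd274 second, so that rank depends on the length chosen.

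Cd276 was low in macrophages and higher with G-1 in every state. It had 1.74 CPM in M0 and 12.5 in M0 with G-1, 5.84 in M1 and 11.5 in M1 with G-1, 3.34 in M2-labelled and 12.6 in M2-labelled with G-1. The 3 libraries with G-1 were close to each other and above the 3 without it. The folds with G-1 were 8.02 in the M0 pair (6.13 to 10.7), 2.26 in the M1 pair (1.93 to 2.66) and 3.74 in the M2-labelled pair (3.08 to 4.55). M1 was 3.72-fold above M0 without G-1 (2.80 to 5.02) and differed from it by a log2 fold of 0.08 with G-1.

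Cd200 had the largest folds of the 10 genes in the M0 and M2-labelled pairs and in M1 over M0 without G-1, whereas Vsir had it in the M1 pair and Cd40 in M1 over M0 with G-1. It was near the lower end of counting in M0 (0.400 CPM, 14 counts) and M2-labelled macrophages (0.270 CPM, 11 counts) and stood at 25.9 CPM in M0 with G-1 and 6.10 CPM in M2-labelled with G-1. M1 macrophages had 29.5 CPM without G-1 and 124 CPM with it. With G-1 it was 72.1-fold higher in the M0 pair (42.8 to 132), 4.81-fold higher in the M1 pair (4.52 to 5.14) and 22.4-fold higher in the M2-labelled pair (12.3 to 45.4). M1 was 82.0-fold above M0 without G-1 (48.7 to 150.5) and 5.53-fold above it with G-1 (5.16 to 5.93). With G-1 the M2-labelled library was 5.18-fold below M0 (4.49 to 6.001).

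Cd200r1, the receptor gene of CD200, stayed within 2-fold with G-1 in all 3 macrophage pairs, with log2 folds of 0.30 in M0, -0.02 in M1 and -0.65 in M2-labelled. Its levels were 89.1 CPM in M0 and 98.3 in M0 with G-1, 20.3 in M1 and 17.4 in M1 with G-1, 220.4 in M2-labelled and 141 in M2-labelled with G-1. M1 was 3.96-fold below M0 without G-1 (3.66 to 4.28) and 4.88-fold below it with G-1 (4.50 to 5.30), and the M2-labelled library was 2.28-fold above M0 without G-1 (2.19 to 2.37). The ligand and the receptor gene therefore stood in opposite order between M1 and M0. Reads of Cd200r1 may be shared with its paralog Cd200r4, which had 580, 1131, 750, 764, 1852 and 2496 counts in the macrophage libraries in the order M0, M1, M2-labelled, each without and with G-1, so the level of Cd200r1 is uncertain to that extent.

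Macrophage markers differed with G-1 too, with more of them lower than higher in each macrophage pair. Of the 10 markers, 7 were lower with G-1 in the M0 pair and 0 higher (summed level 43545 and 11049 CPM), 4 were lower and 1 higher in the M1 pair (18276 and 12391 CPM), and 5 were lower and 0 higher in the M2-labelled pair (49515 and 22697 CPM), and their part in the folds was not tested. In M1 over M0 without G-1, 2 of the 10 were higher and 6 lower. Dendritic cell markers, 8 in all, summed to 11.4 CPM in M0 and 72.3 with G-1, 3.60 in M1 and 2.39 with G-1, and 8.02 in M2-labelled and 24.1 with G-1, with at most 3 of them from 20 counts and Cd209a at 0 outside M0. Of 2 dendritic cell markers measured in the M0 pair 1 was higher with G-1 and 0 lower. In the M1 pair 0 of 3 were higher and 1 lower, and in the M2-labelled pair 2 of 3 and 1. The 5 endothelial markers summed to 10.1 CPM in M0 and 24.1 with G-1, 4.92 in M1 and 1.96 with G-1, and 5.85 in M2-labelled and 29.96 with G-1, with at most 3 of them from 20 counts and Emcn at 0 throughout. The endothelial markers did not move together in the M0 and M2-labelled pairs. In each, 2 were measured, of which 1 was higher with G-1 and 1 lower, and in the M1 pair 0 of 3 were higher and 2 lower. The 6 fibroblast markers summed to 36.4 CPM in M1 and 21.4 with G-1 and to 3.45 CPM or less in the other macrophage libraries, with at most 3 from 20 counts. The 7 neutrophil markers summed to 7.71 CPM in M0 and 1.14 with G-1, 24.8 in M1 and 14.5 with G-1, and 0.566 in M2-labelled and 1.37 with G-1, with Ly6g at 0 in all 6 libraries. The part of these markers was not tested either. Transcript length moved with the fold in the M1 pair, where the Spearman correlation across genes was -0.54, a description since genes are not independent replicates. With the length and GC trend removed, the M1 pair log2 folds were -2.35 for Vsir (main -2.61), 2.02 for Cd200 (main 2.27), -1.37 for Icosl (main -1.15) and -1.03 for Cd274 (main -1.13), and again 2 of 9 were higher and 4 lower, against 5.56% and 8.41% of all genes. M1 over M0 had a length correlation of -0.44 with G-1 and of 0.02 without it. With the trend removed, M1 stood above M0 under G-1 by 7.98-fold for Cd86, 4.38-fold for Cd200, 42.3-fold for Cd40 and 3.01-fold for Cd274.

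A G-1 difference common to M0, M1 and M2-labelled macrophages was tested over their 6 libraries with edgeR's quasi-likelihood test, state and G-1 in the model and p-values adjusted over 11921 genes by Benjamini-Hochberg. The 3 state pairs stand in for replicates here, so a gene that moves differently in the states counts as spread. The p-values, also those of DESeq2 below, measure no spread between samples of the same state. None of the 9 genes tested passed an adjusted p of 0.05, and 0 of all genes did (0%), while 1634 (13.7%) had an unadjusted p under 0.05, 6 of the 9 among them. The adjusted p by edgeR was 0.138 for Vsir (log2 fold -2.01), 0.163 for Cd200 (4.09), 0.192 for Cd276 (1.98), 0.213 for Icosl (-1.85), 0.262 for Cd80 (-1.06) and 0.270 for Cd86 (-1.62), each with the same direction in 3 of 3 pairs. For Cd40 and Cd274, which differed in direction between states, it was 0.509 and 0.718, and for Cd200r1 0.848. DESeq2 with the same model called 796 of 15522 genes (5.13%) and 5 of the 10 here, with adjusted p of 9.75e-09 for Cd200, 1.46e-06 for Vsir, 9.14e-04 for Cd276, 0.00364 for Icosl and 0.0191 for Cd86. Without the M1 pair edgeR called 978 genes and 7 of these 9, without the M0 pair 37 genes and 1 (Cd200, adjusted p 0.0495), and without the M2-labelled pair 47 genes and 0. Over the 7 alternatives the adjusted p ran from 1.46e-06 to 0.994 for Vsir and from 9.75e-09 to 0.994 for Cd200.

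Other ligands and receptors that face T cells, 34 genes picked from known roles, moved in both directions. In the M0 pair 7 of 24 measured were higher with G-1 and 8 lower, against 12.2% and 12.6% of all genes, with a median log2 fold of -0.39 against 0.00 over all genes. In the M1 pair 2 of 26 were higher and 7 lower (median -0.30), against 9.44% and 12.1% of all genes. With a minimum of 100 counts 2 of 21 were higher and 2 lower in the M1 pair, against 870 and 959 of all 9815 genes. In the M2-labelled pair 4 of 25 were higher and 7 lower (median -0.50), against 5.95% and 7.78%. Higher in all 3 were Cd24a, a mucin-like surface protein that engages Siglec receptors (20.8-fold, 5.95-fold and 7.99-fold), and Lgals3, the galectin-3 gene (3.68-fold, 4.55-fold and 3.80-fold). Lower in all 3 were Tnfsf15, the TL1A gene (20.4-fold, 3.49-fold and 8.44-fold), Tnfrsf14, the HVEM gene (5.46-fold, 2.38-fold and 3.74-fold), its ligand gene Tnfsf14 (11.3-fold, 4.02-fold and 3.28-fold) and Fgl2, an inhibitory fibrinogen-like protein (5.88-fold, 2.56-fold and 3.16-fold). Tnfsf15 rested on 43 counts or fewer in M0 and 44 or fewer in M2-labelled macrophages. In M1 over M0 without G-1, 13 of 27 were higher and 5 lower (median 0.84), against 16.8% and 17.4% of all genes, and with G-1 10 of 23 and 4, against 17.7% and 19.7%. In M2-labelled over M0 3 of 24 were higher and 5 lower without G-1, against 7.7% and 6.64%, and 2 of 24 each way with it, against 6.7% and 6.11%.

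Genes known to act on the expression or surface level of the 10, 28 in all, were counted in the same way. In the M0 pair 2 of 26 measured were higher with G-1 and 9 lower (median log2 fold -0.72), against 12.2% and 12.6% of all genes. In the M1 pair 3 of 26 were higher and 4 lower (median -0.10), against 9.44% and 12.1%, and in the M2-labelled pair 0 of 26 and 6 (median -0.37), against 5.95% and 7.78%. Irf1, an interferon-induced transcription factor that acts on Cd274, was 5.79-fold lower with G-1 in M0 (5.31 to 6.33), 2.07-fold higher in M1 (1.97 to 2.18) and 2.47-fold lower in M2-labelled macrophages (2.31 to 2.65). With the length and GC trend removed its log2 fold in the M1 pair was 0.66 (main 1.05), within 2-fold. Stat6, which carries the IL-4 signal, stayed within 2-fold at log2 folds of 0.26, -0.09 and 0.19. Cmtm6, whose protein keeps PD-L1 at the cell surface, was 2.44-fold lower in M0 (2.36 to 2.53), with log2 folds of -0.51 in M1 and -0.90 in M2-labelled. Marchf1, a ubiquitin ligase that removes CD86 from the surface, was 6.09-fold, 7.65-fold and 3.06-fold lower. In M1 over M0, 6 of 26 were higher and 3 lower without G-1, against 16.8% and 17.4% of all genes, and 10 and 1 with it, against 17.7% and 19.7%. In M2-labelled over M0 the counts were 1 and 4 without G-1, against 7.7% and 6.64%, and 0 and 2 with it, against 6.7% and 6.11%.

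In TECs, Cd276 stood above all 6 macrophage libraries and Cd40 above the M0 and M2-labelled ones but below both M1 libraries. Cd276 had 111 CPM in TECs beside M1 macrophages and 97.8 in TECs beside G-1-pretreated ones, and made up 68.1% and 65.1% of the summed level per kilobase. Cd40 had 33.2 and 35.7 CPM and made up 24.7% and 28.7%. Neither differed by 2-fold between both TEC libraries, with log2 folds of -0.19 for Cd276 and 0.09 for Cd40. The other genes stood at 3.25 CPM or less. Icosl had 67 and 53 counts (log2 fold -0.27), and its counting interval in TECs overlapped that of M0 with G-1. Cd200 had 82 and 102 counts (0.39), and its 2.13 and 2.81 CPM lay above the M0 and M2-labelled libraries without G-1 and below the other 4 macrophage libraries. The TEC libraries also held markers of fibroblasts, 5 and 4 of 6 with at least 20 counts and 119 and 95.5 CPM in sum with Lum at 0, and all 5 of endothelium at 89.3 and 102 CPM, beside 6429 and 7215 CPM of the 8 markers of tubular epithelium, and their part in these levels was not tested.

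**Figure D5:**
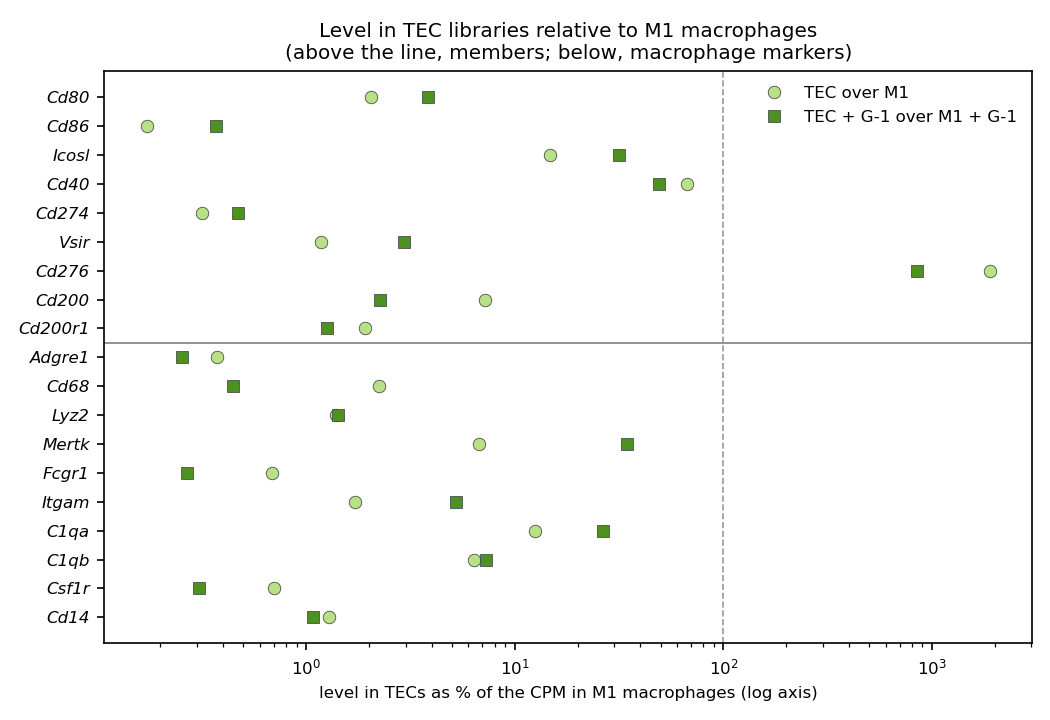
Level in the TEC libraries as a percentage of the CPM in the M1 macrophages of the matching treatment (horizontal log axis), for 9 genes above the line and 10 macrophage markers below it. Circles are TECs over M1 and squares TECs beside G-1-pretreated macrophages over M1 with G-1, each 1 library over 1 library. Cd276 lies at 1896% and 852% and Cd40 at 66.7% and 49.4%, while Cd274 lies at 0.317%, below the lowest marker, and at 0.470%, within the range of the markers.

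Macrophage markers were present in the TEC libraries too, so each level was set against the M1 macrophages. The 10 macrophage markers stood in TECs at a median of 1.55% of their M1 level (0.375% to 12.6%), and at 1.25% (0.255% to 34.4%) in the pair with G-1. Vsir at 1.18% and 2.95% and Cd80 at 2.04% and 3.84% lay within these ranges. Cd274 at 0.317% and Cd86 at 0.172% lay below the range in the pair without G-1, and at 0.470% and 0.371% within it in the pair with G-1. Cd200 at 7.22% and 2.27% and Cd200r1 at 1.92% and 1.26% lay within both ranges. Without G-1, however, Cd200 stood above every marker but C1qa, the next highest being Mertk at 6.72%. Icosl at 14.8% lay above the range without G-1 and at 31.7% within it with G-1, there above every marker but Mertk, the next highest being C1qa at 26.5%. Cd40 and Cd276 lay above the range both times. Vsir was the only call in the TEC pair, with 125 and 42 counts (3.25 and 1.16 CPM), 2.83-fold lower beside G-1-pretreated macrophages (1.98 to 4.12). The log2 fold was -0.99 for Cd80 (23 and 11 counts) and -0.78 for Cd274 (90 and 50 counts). Of the 10 macrophage markers 4 were also lower in that library and 0 higher (median log2 fold -0.80), and their part in the Vsir value was not tested. Cdh23 had 376 and 288 counts in these libraries, more than Vsir within it, so the TEC value of Vsir is uncertain without the strand. Length also moved with the fold in the TEC pair (Spearman correlation -0.58 across genes), and with that trend removed Vsir stood at -1.34 and Cd80 at -1.10, so that 2 of 7 genes were lower, against 2.45% of all genes. Of the other genes facing T cells 1 of 22 was higher and 4 lower, against 1.39% and 2.82% of all genes, and of those acting on the 10 genes 0 of 25 either way. Among the latter the log2 fold was -0.06 for Irf1, -0.08 for Stat6 and 0.11 for Cmtm6.

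The genes whose levels over the 6 macrophage libraries were most like those of 3 of the 10 were sought among 10404 genes by Pearson correlation of log2(CPM + 1), a description with no test, in libraries that share state, set and treatment. For Cd86 they were Sdc4 (0.991), Sp100 (0.991) and Pde4b (0.989). For Cd274 they included Zc3hav1 (0.990) and Slco4a1 (0.986), and for Vsir they were Hnrnpul1 (0.999), Zfp687 (0.996) and Zfp710 (0.996).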

How the data were processed

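The authors extracted total RNA with TRIzol, pooled 3 samples per group, built libraries with the VAHTS kit, read both ends of each fragment and deposited whole-number read counts per gene symbol, 1 table per library. The labels name mm10 and DESeq2. For the aligner, the counter and its strand setting, the sources used here give nothing. Coordinates and transcript lengths came from GENCODE M21 on GRCm38, and promoters from RefSeq on GRCm38.p6.

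Folds were computed with TMM factors of edgeR 4.0.16 (R 4.3.3), taken within both libraries, in Python 3.11.15 (pandas 2.3.3, scipy 1.17.1), with 20 counts as the minimum, a floor of 3 counts for a count of 0 and a call at 2-fold. Pairs have no p-value, since pooling left no spread between samples. The shared effect used edgeR's quasi-likelihood test and, as the other tool, DESeq2 1.42.0, with an adjusted p threshold of 0.05. The fold intervals were run on simulated counts that held counting error only, which cannot show how they cover spread between samples or libraries. Alternatives were DESeq2's size factors, library totals, filters of 100 counts or none, the near bound of the interval, the length and GC trend taken out with running medians (501 genes), another transcript length, and leaving out each pair or the state. Named were the 10 genes, up to 4 genes per other list and direction, Irf1, Stat6 and Cmtm6 in every pair, and up to 3 similar genes each for Cd86, Cd274 and Vsir. The rule offers more genes than are named, and some items are not reported here. The genes and lists were chosen with earlier results of these data known, and genes that responded to IL-4 or LPS were picked after their values were seen.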

Additional observations from a re-analysis of the deposited data

Results flagged for a closer look

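Cd274 was called in opposite directions with G-1. Its log2 fold was 1.15 in the M0 pair and 1.72 in the M2-labelled pair, both higher with G-1, and -1.13 in the M1 pair. Each value is 1 library against 1, and the difference between the states was not tested.

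The change of the Cd80 to Cd86 ratio with G-1 also differed in sign, at a log2 value of 1.89 in the M0 pair, -1.28 in the M1 pair and 1.12 in the M2-labelled pair, and this difference was not tested. Irf1 had log2 folds of -2.53 in the M0 pair, 1.05 in the M1 pair and -1.31 in the M2-labelled pair, and with the length and GC trend removed the M1 value was 0.66, within 2-fold. Ceacam1, a surface receptor that inhibits T cells, had 1.11 in the M0 pair and -1.03 in the M2-labelled pair. Cd244a, a receptor of the SLAM family, had 1.76 in the M0 pair (10 and 32 counts) and -5.79 in the M1 pair (62 and 1 counts). Tnfsf4, the OX40 ligand gene, had -2.33 in the M1 pair (45 and 8 counts) and 1.25 in the M2-labelled pair (14 and 32 counts). The differences between states of these 4 genes were not tested either.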

How the results depend on the processing

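No paired analysis was possible because each group has 1 library, and state already stands in the shared model as its block. Of the log2 folds of the 10 genes in all comparisons of libraries, those over M0 included, 289 values under alternatives lay within the main interval and 53 outside it. The filters of 100 counts or none leave the fold of a measured gene as it is, so their values, counted among the 289, could not fall outside. No called fold changed direction. Calls moved as follows. In the M0 pair Cd80 was lost by the near bound of the interval. In the M1 pair, 1 gene instead of 2 was higher with library totals and by the near bound, since Cd276 was lost, and Icosl was lost by the near bound. In the TEC pair, 2 genes instead of 1 were lower with DESeq2's size factors and with the length and GC trend removed, since Cd80 joined, and 0 by the near bound. In M2-labelled over M0 without G-1, 2 genes instead of 1 were higher with the trend removed, since Cd276 joined, and Vsir was lost (-0.97), and with G-1 1 instead of 2 was higher by the near bound, since Icosl was lost. With library totals, which shift the median of all genes by -0.16 in the M0 pair and by -0.20 in the M1 pair on the log2 scale, Cd274 had 0.99 in the M0 pair and Vsir in M2-labelled over M0 had -0.97. Icosl in M1 over M0 without G-1 became lower with library totals (-1.07), and with G-1 it was within 2-fold under 4 alternatives. With no filter Pdcd1lg2 joined as lower in the M0 and M1 pairs and in M2-labelled over M0 without G-1, on 14 counts or fewer, and with 100 counts Cd80, Icosl and Cd274 were not measured in the TEC pair. The rank of Cd274 in M1 with G-1 was 2 instead of 1 with mean transcript lengths, behind Cd200.

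For the shared effect, edgeR called 0 genes and 0 of the 9, DESeq2 796 and 5, edgeR with no filter 25 and 0, and leaving out 1 pair gave from 37 to 978 genes and from 0 to 7 of the 9. With state left out of the model, 0 genes passed (538 at an unadjusted p under 0.05), and the log2 folds of Cd40 and Cd274 changed sign to 0.35 and -0.69. Without the M2-labelled pair those of Cd274 and Cd200r1 changed sign, to -0.017 and 0.12, and leaving out 1 pair at a time gave from -0.017 to 1.42 for Cd274 and from -0.36 to 0.12 for Cd200r1. The causes were not tested. Depth limits Pdcd1lg2 in all libraries, Cd200 in M0 and M2-labelled macrophages without G-1, and Cd86, Cd200r1, Cd80, Icosl, Cd274 and Vsir in TECs.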

Other observations

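Receptors of the 10 molecules were read in the same libraries as values with no comparison. Cd28, which encodes the T cell receptor of CD80 and CD86, had 10601 counts in M0 (303 CPM) and 7881 in M0 with G-1 (213 CPM), 285 in M1 and 70 in M1 with G-1, 2854 in M2-labelled and 2712 in M2-labelled with G-1, and 7 and 0 counts in the TEC libraries. The CD3 genes Cd3d, Cd3e and Cd3g had 0 counts in each of these libraries. Ctla4 and Pdcd1, which encode the inhibitory receptors CTLA-4 and PD-1, had 0 counts in all 8 libraries. Icos, the receptor gene of ICOSL, had 81 and 48 counts in the TEC libraries and at most 33 in a macrophage library. Cd40lg, the gene of the CD40 ligand, had 4 counts in M1 and 0 in the other libraries.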
